A study of Mus musculus with 768 samples.

Results

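The cells compared here are the 124 muscle stem cells of the 2 old mice, out of 377 cells in the count table, divided by whether the RNA of the cell gave any read on *Col3a1*. The classes were defined by the measured values themselves. A cell with at least 1 *Col3a1* read belonged to the class with reads, which held 51 cells, and a cell with 0 reads to the class without, which held 73. *Col3a1* therefore describes the classes and was left out of every comparison between them. All mice carried the *Tg:Pax7-nGFP* transgene, in which the *Pax7* promoter drives a nuclear green fluorescent protein, on the C57BL/6;DBA2 F1/JRj background, and all were males. Cells were taken from the tibialis anterior muscle of the lower leg, frozen, thawed, sorted for the highest nGFP signal and lysed in separate wells, and their mRNA was amplified by Smartseq2 while the DNA of the same cell went to bisulfite sequencing. The labels give an age of 24 months for old mice O1 (56 cells) and O5 (68 cells), and of 2 months for young mice Y4 (60), Y5 (44), Y7 (74) and Y8 (75), which carried no class here and serve as a reference level.

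*Col3a1* encodes the chain of type III collagen, a fibrillar collagen of loose connective tissue that is co-assembled with other fibrillar collagens. Muscle stem cells lie between the fibre membrane and a basement membrane made of laminins, type IV collagens, nidogens and the proteoglycan perlecan, and they make part of that matrix themselves. Collagen chains fold in the endoplasmic reticulum with dedicated chaperones and prolyl hydroxylases, are cut and crosslinked outside the cell, and are removed by metalloproteases. Receptors such as integrins and dystroglycan tie the cell to this layer.

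*Col3a1* lies on chromosome 1 (45311538 to 45349706, GRCm38, plus strand), and no other gene in the count table overlaps it in GENCODE M21. The 250 bases before its start are printed below with those of *Lama2*, *Hspg2* and *Serpinh1*, 3 matrix genes that were read more often in cells with *Col3a1* reads (values below), to show how far their start regions differ in sequence. The sequences are from RefSeq (GRCm38.p6), run 5′ to 3′ on the strand of the gene and carry in capitals each match, on either strand, to 1 of 7 motifs. These were the TATA box as TATAAA, the CCAAT box as CCAAT, the GC box as GGGCGG, and the core letters of sites for TEAD factors as CATTCC, for AP-1 as TGANTCA, for RBPJ as GTGGGAA and for SMAD factors as CAGAC.
Col3a1: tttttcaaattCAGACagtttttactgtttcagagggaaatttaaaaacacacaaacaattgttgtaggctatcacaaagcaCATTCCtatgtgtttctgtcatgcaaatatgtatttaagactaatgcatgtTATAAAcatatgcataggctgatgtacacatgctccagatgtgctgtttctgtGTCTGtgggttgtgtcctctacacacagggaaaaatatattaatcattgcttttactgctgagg
Lama2: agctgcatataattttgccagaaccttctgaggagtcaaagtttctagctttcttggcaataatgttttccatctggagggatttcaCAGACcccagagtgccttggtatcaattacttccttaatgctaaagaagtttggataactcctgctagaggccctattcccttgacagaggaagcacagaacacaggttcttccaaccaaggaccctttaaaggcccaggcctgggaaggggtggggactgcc
Hspg2: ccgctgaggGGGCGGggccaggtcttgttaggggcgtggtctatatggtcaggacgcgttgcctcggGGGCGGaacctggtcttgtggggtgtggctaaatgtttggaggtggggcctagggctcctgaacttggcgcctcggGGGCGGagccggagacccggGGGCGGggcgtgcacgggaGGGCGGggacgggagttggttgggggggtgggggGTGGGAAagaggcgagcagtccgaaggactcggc
Serpinh1: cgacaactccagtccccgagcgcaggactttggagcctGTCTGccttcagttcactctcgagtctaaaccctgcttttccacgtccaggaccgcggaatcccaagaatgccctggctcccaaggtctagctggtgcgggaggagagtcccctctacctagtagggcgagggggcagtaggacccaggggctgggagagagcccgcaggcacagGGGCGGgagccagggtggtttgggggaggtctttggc

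They cover chr1:45311288-45311537 (plus strand) for *Col3a1*, chr10:27616943-27617192 (minus) for *Lama2*, chr4:137468553-137468802 (plus) for *Hspg2* and chr7:99353240-99353489 (minus) for *Serpinh1*. The *Col3a1* window was AT-rich, with 35.2% G or C against a median of 52.4% over 32851 promoters, whereas the *Hspg2* window had 70.0% and held GGGCGG in 5 copies. The TATAAA motif, found in 12.4% of all promoter windows of this length, and CATTCC, found in 12.6%, each occurred in the *Col3a1* window and in none of the other 3. GTGGGAA (5.42% of all windows) occurred in *Hspg2*, and CAGAC, present in 42.2% of windows, in *Col3a1*, *Lama2* and *Serpinh1*. GGGCGG (32.7% of windows) was present in *Hspg2* and *Serpinh1*, and CCAAT (33.8%) and TGANTCA (6.75%) matched in none of these 4. The *Hspg2* window ends inside the gene as GENCODE M21 places it (coordinates below). Its GTGGGAA match begins 34 bases before the window end and so lies inside that gene. These are matches of letters, not measured binding.

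Reads of *Col3a1* were found in 16 of 56 cells of O1 (28.6%, 95% Wilson interval 18.4% to 41.5%) and in 35 of 68 cells of O5 (51.5%, 39.8% to 62.9%). Among young mice Y8 had the lowest such share, 90.7%, followed by Y4 with 91.7% and Y7 with 98.6%, and every cell of Y5 had reads. The old cells with reads were also not alike in level. Among them the median was 31.3 RPM (reads scaled to 1000000 reads on genes of the cell) in O1, with a range of 2.85 to 1268, and 445 RPM in O5, with a range of 7.43 to 4914. The medians of the young mice, over their own cells with reads, ran from 1075 to 1345 RPM. Of the cells of O1 only 1, and of those of O5 10, exceeded the middle of these young medians, 1130 RPM.

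**Figure D1:**
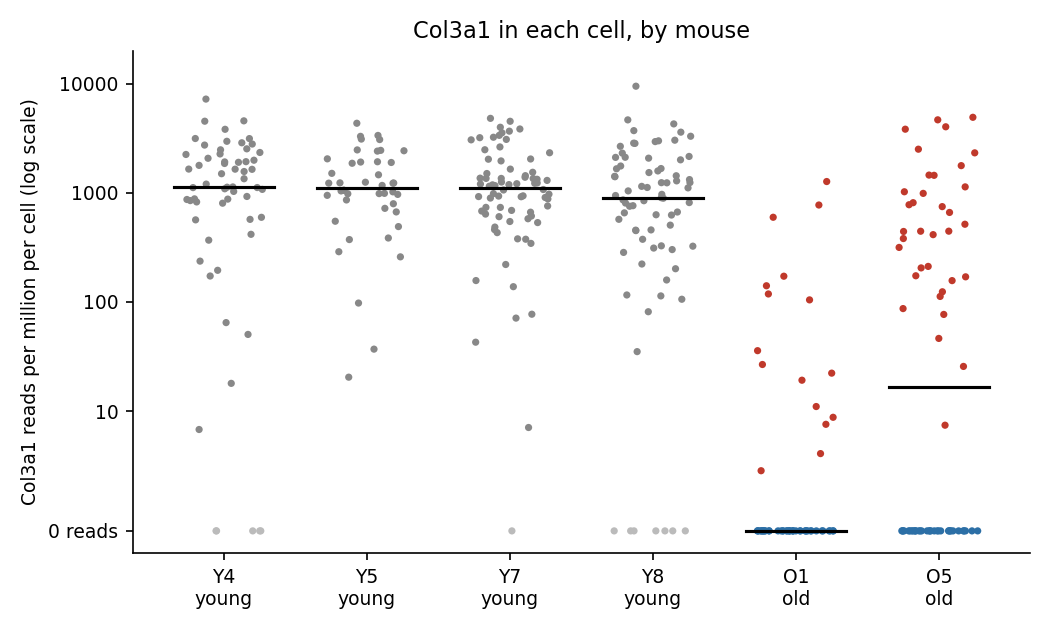
Col3a1 in RPM (log scale) in each of 377 cells, by mouse; points on the lowest line are cells with 0 reads, and black bars are medians over all cells of a mouse. Old cells with reads are red, old cells without are blue and young cells are grey; the old mice have 40 (O1) and 33 (O5) cells on the lowest line, against 0 to 7 in a young mouse.

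More cells of O1 than of O5 lay close to the threshold. Just inside it, 12 old cells had 1 to 5 *Col3a1* reads, 9 of them from O1 and 3 from O5, at 2.85 to 46.3 RPM, and no old cell had 6 to 9. The other 7 cells of O1 and 32 cells of O5 had 10 reads or more. Outside it, in the 73 cells with 0 reads, 3 reads would have corresponded to 6.52 to 27.5 RPM, which is the limit that a count of 0 allows for counting error alone. The column names of the table place both old mice on lane 2 together with young mouse Y7, whose cells held 27778 *Col3a1* reads against 579 in O1 and 11310 in O5. Whether the lowest counts came from neighbouring wells of the lane was not tested.

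Both classes carried the markers of muscle stem cells. All 10 listed stem cell markers had reads in each class of each mouse, and their summed level was 14190 and 12401 CPM (summed reads scaled in the same way) in O1 with and without *Col3a1* reads, and 10771 and 12054 CPM in O5. *Pax7*, the transcription factor of the lineage, was read in 13 of 16 and 33 of 40 cells of O1 and in 32 of 35 and 30 of 33 cells of O5, in the order with and without. *Sdc4*, a heparan sulphate proteoglycan receptor of satellite cells, was read in every old cell. Of 10 fibroblast markers, *Pdgfra*, *Ly6a*, *Dcn*, *Lum* and *Mfap5* were at 0 in all 4 combinations of mouse and class, and the summed level, carried mainly by *Dpt* and *Cd34*, was 353 and 727 CPM in O1 and 628 and 630 CPM in O5. *Pecam1*, *Cdh5* and *Kdr* of endothelium, *Ptprc* and *Tyrobp* of blood, *Rgs5* and *Myh11* of pericytes and smooth muscle, *Tnmd* of tendon, *Sox10* of Schwann cells (whose gene *Mbp* was read in 1 of 16 and 0 of 40 cells of O1 and in 2 of 35 and 0 of 33 of O5) and *Ckm* and *Acta1* of fibres were at 0 in all 4 as well. The summed level of the remaining markers reached at most 75.5 CPM for 8 endothelial genes, 24.2 for 9 immune genes, 504 for 7 pericyte genes (25.0% of the O1 cells of either class had any of these), 73.1 for 6 tendon genes and 11.2 for 10 fibre genes. The fibroblast markers *Col1a1* and *Clec3b* were at 0 except in O5 cells with *Col3a1* reads. *Dpt* was read in 10 of 16 and 22 of 40 cells of O1 and in 28 of 35 and 18 of 33 of O5. The endothelial marker *Tek* was read in 4 of 16 and 6 of 40 cells of O1 and in 4 of 35 and 1 of 33 of O5.

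The median number of genes detected was higher in the cells with *Col3a1* reads, which in O1 rested on the cells near the threshold. In O1 the number of genes detected, *Col3a1* not counted, was 1014 to 2996 with a median of 1669 in the class with reads, and 1163 to 2217 with a median of 1552 in the class without. In O5 it was 1313 to 2991 with a median of 1923, and 1082 to 2810 with a median of 1708. The classes overlapped widely in both mice: in a pair made of a random cell of each class, the cell with *Col3a1* reads had more genes in 57.2% of all pairs in O1 and 66.7% in O5. The mean difference of the medians was 166 ± 68.9 genes (SD, n = 2 mice), and an exact permutation test over 2 mice cannot give a p below 0.5. The median number of reads on genes was lower with *Col3a1* reads in O1 (187076 against 223787) and higher in O5 (297600 against 279695). With every cell thinned to 100000 reads the medians were 1570 and 1481 in O1 and 1791 and 1625 in O5. Within the class with reads of O1, the 9 cells with 1 to 5 *Col3a1* reads had a median of 1843 genes and the 7 cells with 10 or more a median of 1557, so that the latter were level with the 1552 of the class without. In O5 the 3 cells with few reads had a median of 1490 genes and the 32 cells with 10 or more a median of 1977. The most gene-rich cell of O1, with 2996 genes, had a single *Col3a1* read.

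Listed matrix genes were compared in the same way. Of 183 genes of the extracellular matrix lists, a cell of O1 had reads on a median of 24.5 with and 23 without *Col3a1* reads, and a cell of O5 on 33 and 26. In O1 the median was 31 in the 9 cells near the threshold and 22 in the 7 cells with 10 or more *Col3a1* reads, below the class without, whereas in O5 it was 29 and 34. After thinning, the medians were 23 in both classes of O1, and 32 and 26 in O5. As a share of the genes detected in the cell, matrix genes made up a median of 1.72% and 1.52% in O1 and 1.78% and 1.59% in O5. Because the number of genes per cell differed, cells were also paired 1 to 1 across the classes within a mouse on genes detected, which left 13 pairs in O1 and 27 in O5. In the pairs, matrix genes per cell had medians of 24 and 22 in O1 and 31 and 27 in O5. Pairing did not balance depth: the median number of reads on genes was 194321 with and 232583 without *Col3a1* reads in O1. In O5 it was 240703 and 312808.

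**Figure D2:**
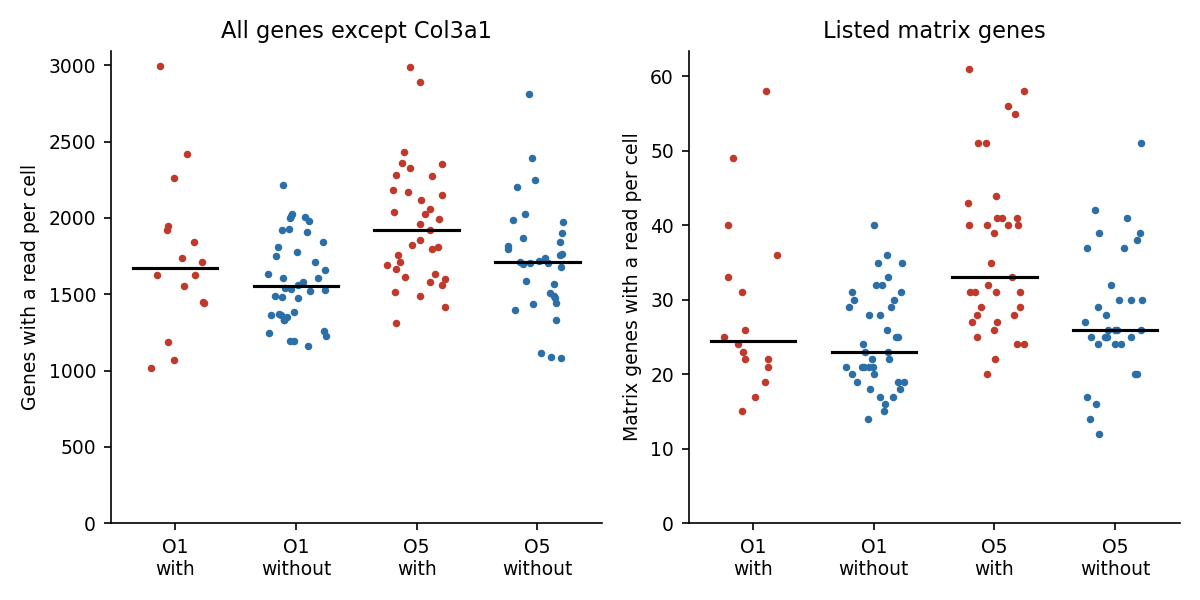
Genes detected per cell without Col3a1 (left) and listed matrix genes detected per cell (right) in old mice O1 and O5; each point is a cell, red with and blue without Col3a1 reads, and black bars are medians. The medians are 1669 and 1552 genes in O1 and 1923 and 1708 in O5, and 24.5 and 23 matrix genes in O1 and 33 and 26 in O5.

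Most cells without *Col3a1* reads had reads on other collagens. Over 40 other collagen genes, a cell of O1 had reads on a median of 2 with and 1.5 without *Col3a1* reads, and in O5 the median was 3 in both classes. No read on any other collagen was found in 3 of 16 and 7 of 40 cells of O1, and in 0 of 35 and 2 of 33 cells of O5. *Col4a1* or *Col4a2* was read in 5 of 16 and 18 of 40 cells of O1, so in the smaller share of the cells with *Col3a1* reads, and in 25 of 35 and 18 of 33 cells of O5, where the order was the opposite. In the young mice a cell had a median of 4 to 5.5 other collagens, and 73.3% to 93.3% of the cells had a read on *Col4a1* or *Col4a2*.

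To ask which genes differed between the classes, the percentage of cells in which a gene was detected (1 read or more) was compared within O1 and within O5, with each mouse as a block, by limma on the log2 odds. Among 5161 genes read in at least 10% of old cells, 0 passed an adjusted p of 0.05, or 0.0% of those tested, while 383 had an unadjusted p under 0.05. Reads summed per mouse and class and tested with edgeR gave 0 of 10056 genes (0.0%), with 243 at an unadjusted p under 0.05, of which 116 (1.15%) were higher and 127 (1.26%) lower with *Col3a1* reads. On the same sums DESeq2 called 228 of 10056 genes, 119 higher and 109 lower. Of the 123 matrix genes tested there, it called 2 as higher (*Col8a1* and *Col12a1*) and 1 as lower (*Adamts14*), a share near that over all genes. limma on the mean log2(RPM + 1) of the cells called only *Lama2*. Across all 5161 genes the share of cells with a read was higher with *Col3a1* reads for 61.9% and the median difference was 2.33 percentage points.

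Of the listed matrix genes 150 had any read in old cells, and 83 were read in at least 10% of them. Their median difference was 5.10 points (2.50 in O1 and 7.01 in O5), beside 2.33 over all genes (1.25 in O1 and 2.51 in O5). Of the 83, 63 (75.9%) were higher with *Col3a1* reads. In both mice 36 of the 83 were higher, which is 43.4% beside 32.6% of all genes. In both mice 9 of the 83 were lower, beside 832 of all 5161 genes. At an unadjusted p under 0.05, 12 of the 83 were higher and 0 lower, beside 6.12% of all genes higher and 1.3% lower. Thinning left a median of 4.03 points against 2.17 over all genes. Among cells paired on genes detected, the medians were 0.21 points for matrix genes and 0.0 for all genes, and with thinning before the pairing 1.92 and 0.0, and 1 matrix gene of 84, *Hspg2*, had an unadjusted p under 0.05 with a higher share, beside 1.58% of all genes. With thinning before the pairing 0 of 80 matrix genes had such a p in limma. Over all 4829 genes tested in that setting, 57 with a higher and 65 with a lower share had one. On summed reads 123 matrix genes were tested, with 70 higher and 53 lower, and a median log2 fold change of 0.08 against −0.20 over all genes. That median was −0.29 in O1 and 0.46 in O5, and 0.25 in the paired cells, where all genes had −0.01.

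**Figure D3:**
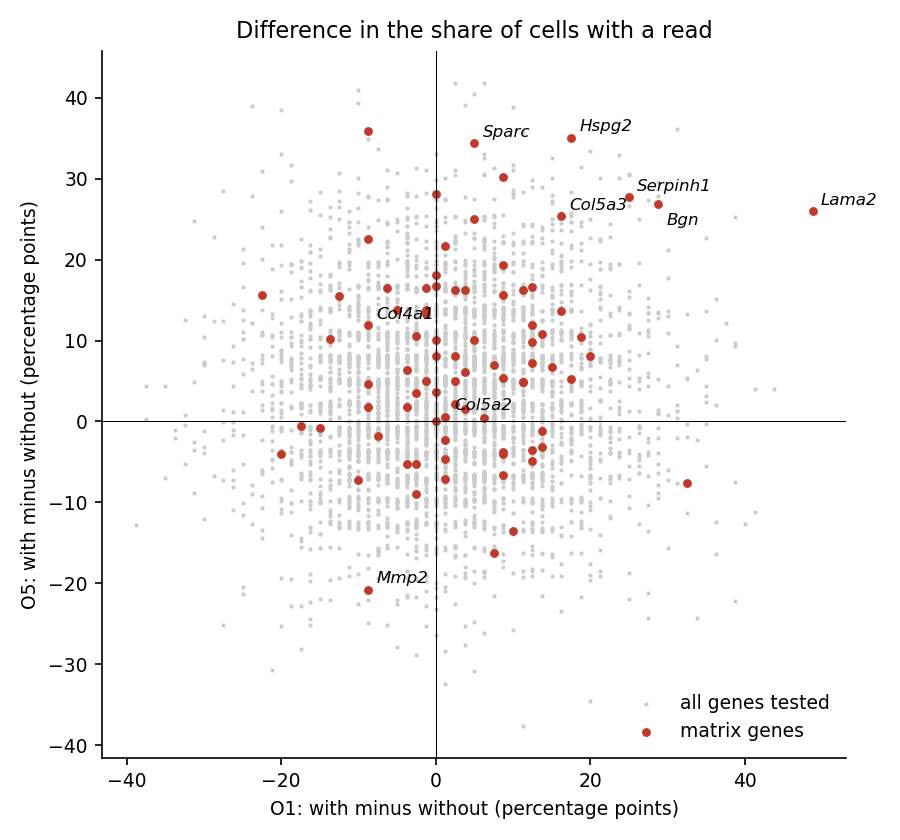
Difference in the share of cells with a read between old cells with and without Col3a1 reads, in percentage points, in O1 (x axis) and O5 (y axis); grey points are the 5161 genes tested and red points the 83 listed matrix genes among them. Lama2, Bgn, Serpinh1, Hspg2 and Col5a3 lie to the upper right, Sparc near the top close to 0 on the x axis, Col4a1 to the upper left, Col5a2 near the origin and Mmp2 to the lower left.

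Of the matrix genes tested, a basement membrane laminin had the largest difference in share. *Lama2*, the α2 chain of the laminin of muscle basement membrane (chromosome 10, start 26981288), was read in 11 of 16 cells of O1 with *Col3a1* reads (68.8%, 95% Wilson interval 44.4% to 85.8%) and in 8 of 40 without (10.5% to 34.8%). In O5 it was read in 25 of 35 (71.4%, 54.9% to 83.7%) and in 15 of 33 cells (45.5%, 29.8% to 62%). The cells with *Col3a1* reads stood within the range of the young mice, 41.3% to 74.3%, and the O1 cells without lay below it. The difference was 37.4 points, or 2.27 ± 0.56 on the log2 odds scale (SE), with an adjusted p of 0.115 in limma. It was 41.4 points after thinning, with an adjusted p of 0.0218, 36.2 points in the paired cells and 27.8 with thinning before the pairing. Mean log2(RPM + 1) differed by 3.52 with an adjusted p of 0.0241 in limma, while the summed reads differed by a log2 fold change of 1.52 ± 0.63 (SE) with an adjusted p of 1 in edgeR. In cells with a *Lama2* read the median level was 235 RPM with and 254 without *Col3a1* reads in O1, and 780 and 268 in O5.

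*Hspg2*, which encodes perlecan (chromosome 4, 137468769 to 137570630), was read in 10 of 16 and 18 of 40 cells of O1 and in 25 of 35 and 12 of 33 cells of O5, a difference of 26.3 points (log2 odds 1.52 ± 0.56 SE, adjusted p = 0.458, limma). In the pairs the difference was 32.2 points, and with thinning before the pairing 14.9. *Lamc3*, a laminin γ chain, was read in 6 of 16 and 10 of 40 cells of O1 and in 13 of 35 and 9 of 33 of O5, 11.2 points apart, and *Lama3* was read in 6 of 16 and 12 of 40 cells of O1 and in 6 of 35 and 11 of 33 of O5. Of the 9 laminin and basement membrane genes tested, 6 were higher and the median was 7.60 points, or 2.78 in the pairs.

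Among matricellular proteins and proteoglycans 16 of 19 genes were higher, with a median of 11.4 points that fell to 0.0 in the pairs. *Bgn*, which encodes the small proteoglycan biglycan (X chromosome, 73483602 to 73495933), was read in 9 of 16 and 11 of 40 cells of O1 and in 20 of 35 and 10 of 33 cells of O5. The groups differed by 27.8 points (log2 odds 1.63 ± 0.55 SE, adjusted p = 0.446, limma), with 22.8 points in the pairs, and again only the cells without *Col3a1* reads lay under the young range of 42.7% to 60.8%. *Sparc*, a collagen-binding glycoprotein, was read in 10 of 16 and 23 of 40 cells of O1 and in 29 of 35 and 16 of 33 of O5. Its difference of 19.7 points came almost wholly from O5 (34.4 points) rather than O1 (5.00), and was 9.26 in the pairs and 23.3 with thinning before the pairing. The summed level of *Sparc* was 705 and 313 CPM in O1 and 1662 and 502 CPM in O5, a log2 fold change of 1.42 ± 0.49 (SE) with an adjusted p of 1 in edgeR. *Igfbp5*, *Ltbp1* and *Ltbp4* differed by 1.5, 2.47 and 14.1 points.

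The fibrillar collagens, the family to which *Col3a1* belongs, had a median of 0.93 points over the 3 that were tested. *Col5a2*, an α chain of type V collagen and the next gene to *Col3a1* in the table (chromosome 1, 45374321 to 45503282), was read in 5 of 16 and 12 of 40 cells of O1 and in 14 of 35 and 13 of 33 of O5. The difference was 1.25 points in O1 and 0.61 in O5, and all 4 shares lay below the lowest young mouse (43.3%). *Gulp1*, the neighbour on the other side, was read in 1 of 16, 2 of 40, 5 of 35 and 5 of 33 cells. *Col5a1* differed by −2.04 points. *Col5a3*, the third type V chain, was instead read in 3 of 16 and 1 of 40 cells of O1 and in 11 of 35 and 2 of 33 of O5, a difference of 20.8 points (log2 odds 2.67 ± 0.96 SE, adjusted p = 0.446, limma) and of 13.2 in the pairs. All 3 of these cells of O1 had 1 to 5 *Col3a1* reads, and none of the 7 with 10 or more had *Col5a3*. Shares of *Col5a3* without *Col3a1* reads were under 10% in both mice, so it met the limit for testing only through the class with reads. *Col1a2* was read in 2, 1, 5 and 3 cells of these groups, too few to be tested by share.

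For the type IV collagen chains the mice did not give the same order. *Col4a1* was read in 3 of 16 and 11 of 40 cells of O1 (18.8% and 27.5%) and in 19 of 35 and 14 of 33 of O5 (54.3% and 42.4%), with a mean difference of 1.56 points, of −7.55 in the pairs and of 4.55 with thinning before the pairing. *Col4a2* was read in 25.0% of both classes of O1 and in 51.4% and 33.3% of O5. GENCODE M21 places these genes on opposite strands with overlapping ends, so that without strand their reads there cannot be told apart. Among the other collagens *Col6a1* (13.8 points) and *Col8a1* (14.6 points, in 2 of 16, 0 of 40, 9 of 35 and 3 of 33 cells) were read in larger shares of the cells with *Col3a1* reads, whereas *Col6a2* and *Col19a1* differed by 4.03 and −0.50 points. For *Col8a1* the shares without *Col3a1* reads were under 10% in both mice, so it met the limit for testing only through the class with reads.

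**Figure D4:**
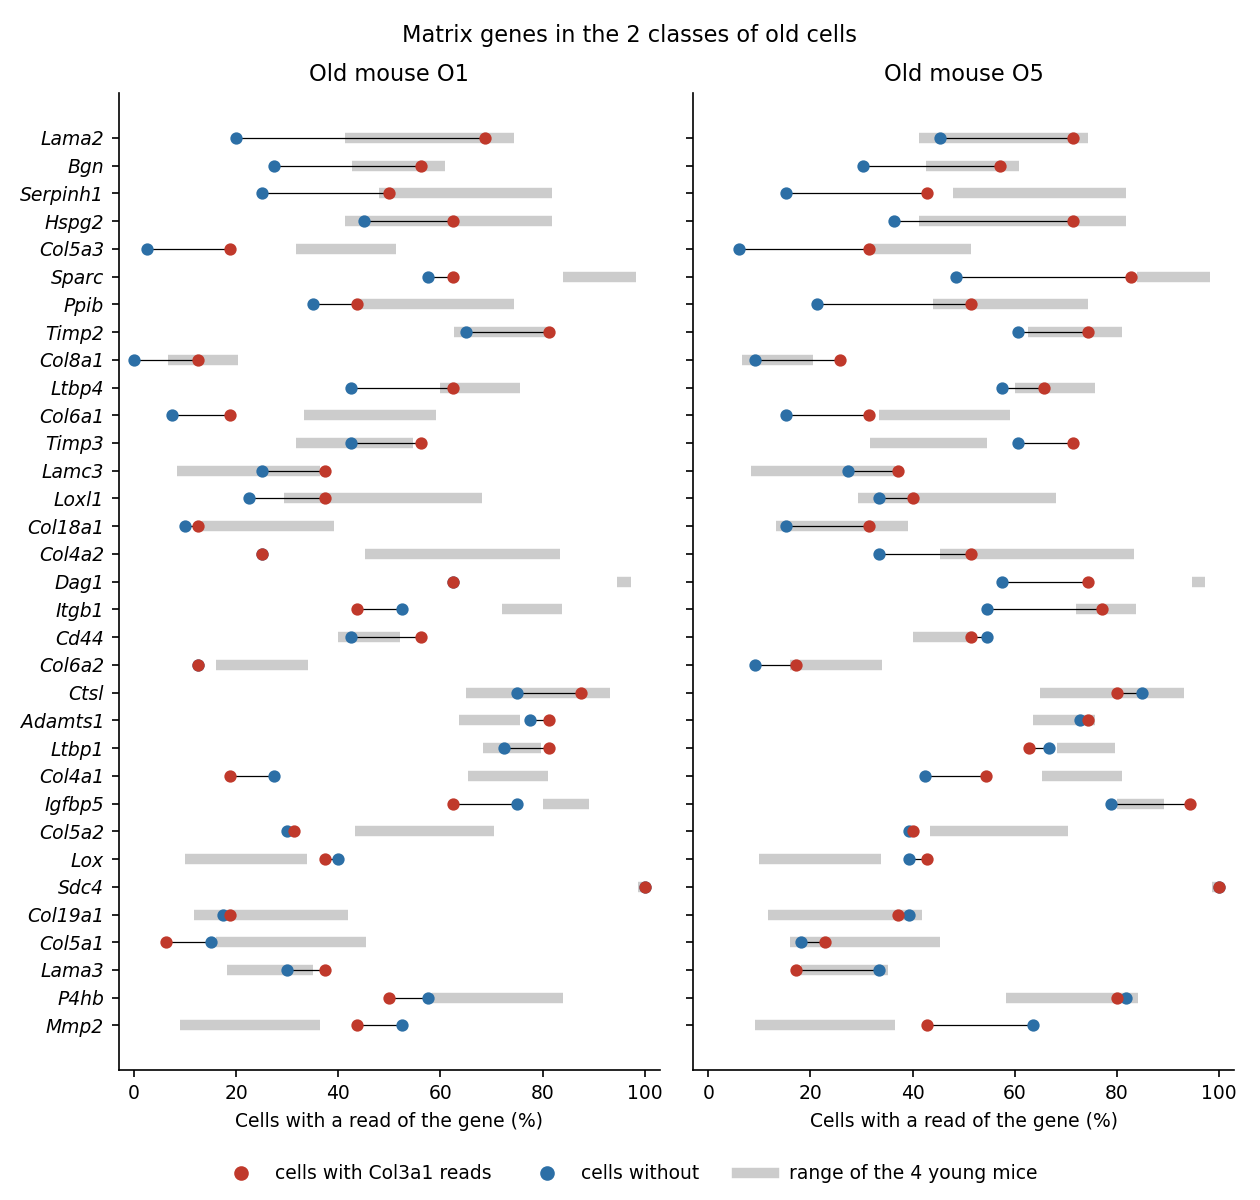
Share of cells with a read of 33 matrix genes in O1 (left) and O5 (right), for old cells with (red) and without (blue) Col3a1 reads, ordered by the mean difference; grey bars span the 4 young mice. The genes are the most widely read of each list, with Bgn, Mmp2 and Serpinh1 added. Lama2 shows 11 of 16 against 8 of 40 cells in O1 and 71.4% against 45.5% in O5, and Mmp2 43.8% against 52.5% and 42.9% against 63.6%.

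Of the genes for collagen folding and crosslinking 11 of 15 were higher, with a median of 4.48 points and of −3.06 in the pairs. *Serpinh1*, which encodes the collagen chaperone HSP47 (chromosome 7, start 99345375) and was named after its values were seen, was read in 8 of 16 and 10 of 40 cells of O1 and in 15 of 35 and 5 of 33 cells of O5. The difference of 26.4 points (log2 odds 1.75 ± 0.56 SE, adjusted p = 0.436, limma) was 24.5 in the pairs. *Ppib*, a prolyl isomerase of the same compartment, differed by 19.5 points and by 9.26 in the pairs. The crosslinking enzyme *Lox* (0.48 points) and the protein disulphide isomerase *P4hb* (−4.66 points) showed smaller differences. Of the receptors 13 of 15 were higher, with a median of 5.32 points and 5.70 in the pairs. *Dag1*, which encodes dystroglycan, was read in 62.5% of both classes of O1 and in 74.3% and 57.6% of O5, all under the young range of 94.7% to 97.3%. *Itgb1*, the β1 integrin chain, was read in 43.8% and 52.5% in O1 and in 77.1% and 54.5% in O5. *Cdh15*, which encodes M-cadherin, was read in 7 of 16, 15 of 40, 15 of 35 and 14 of 33 cells.

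Matrix proteases were the list with the smallest difference among the matrix lists with over 5 genes tested, with 9 of 15 higher, a median of 2.65 points and of −3.70 in the pairs. *Mmp2*, a gelatinase, was read in a smaller share of the cells with *Col3a1* reads: in 7 of 16 against 21 of 40 cells of O1 and in 15 of 35 against 21 of 33 of O5. The difference of −14.8 points (log2 odds −0.83 ± 0.56 SE, adjusted p = 0.778, limma) was −5.56 in the pairs and −10.3 with thinning before the pairing, and all 4 shares lay above the highest young mouse (36.5%). In O1 the order depended on the cells near the threshold, as *Mmp2* was read in 3 of 9 cells with 1 to 5 *Col3a1* reads but in 4 of 7 with 10 or more, and in O5 it was read in 3 of 3 and 12 of 32. The inhibitors *Timp2* and *Timp3* were 15.0 and 12.3 points higher, but the difference of *Timp3* changed sign in the pairs.

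**Figure D5:**
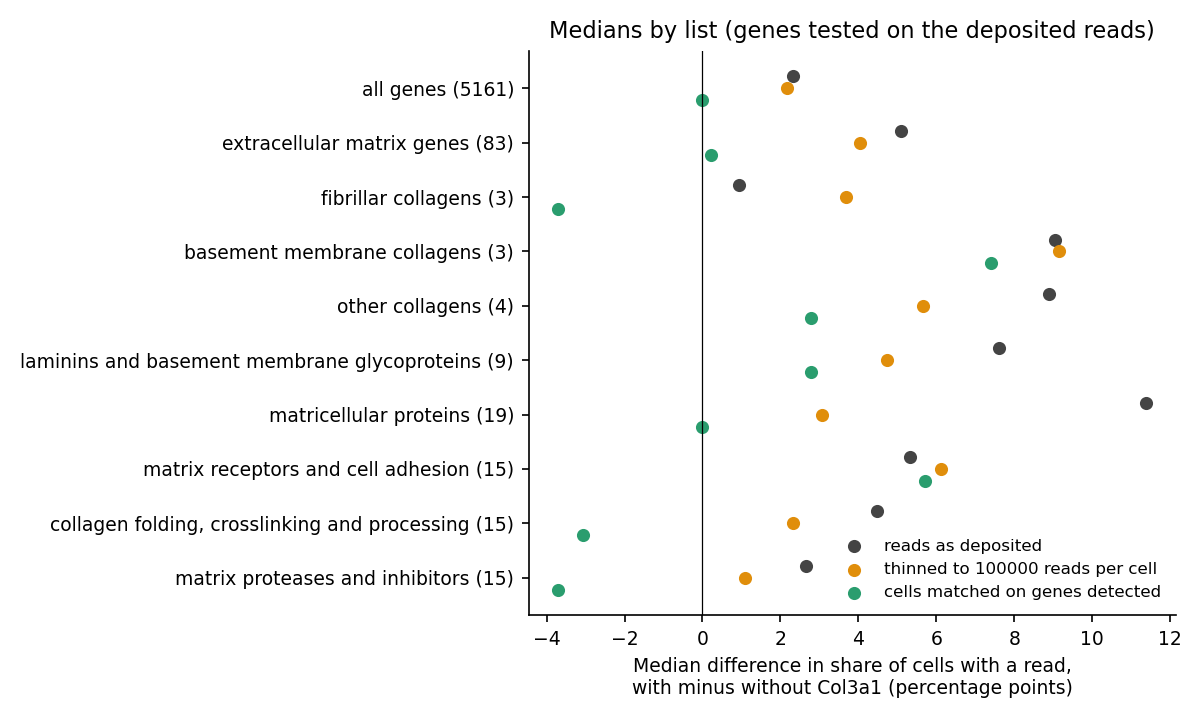
Median difference in the share of cells with a read, in percentage points, over all genes, all matrix genes and each matrix list (number of genes tested on the deposited reads in brackets), for the deposited reads, for cells thinned to 100000 reads and for cells paired on genes detected. The median over matrix genes is 5.10, 4.03 and 0.21 points, and over all genes 2.33, 2.17 and 0.0.

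The cells just inside the threshold were also read apart from the rest of their class. In O1, *Lama2* was read in 8 of 40 cells with 0, in 7 of 9 cells with 1 to 9 and in 4 of 7 cells with 10 or more *Col3a1* reads, and *Bgn* in 11 of 40, 6 of 9 and 3 of 7. *Hspg2* in O1 was read in 18 of 40, 6 of 9 and 4 of 7, and *Sparc* in 23 of 40, 6 of 9 and 4 of 7. In O5, where 3 cells had 1 to 9 reads, *Lama2* was read in 15 of 33, 1 of 3 and 24 of 32 cells, *Bgn* in 10 of 33, 2 of 3 and 18 of 32, *Sparc* in 16 of 33, 1 of 3 and 28 of 32, and *Hspg2* in 12 of 33, 2 of 3 and 23 of 32. *Serpinh1* was read in 10 of 40, 4 of 9 and 4 of 7 cells of O1 and in 5 of 33, 1 of 3 and 14 of 32 of O5, and *Col4a1* in 11 of 40, 2 of 9 and 1 of 7, and in 14 of 33, 0 of 3 and 19 of 32. Among these genes, the cells with 1 to 9 reads had the highest share of the 3 groups for *Lama2*, *Hspg2*, *Bgn* and *Sparc* in O1 and for *Bgn* in O5, and the lowest for *Lama2*, *Sparc* and *Col4a1* in O5. They also had the highest share for *Col5a3* in both mice, and for *Mmp2* the highest in O5 and the lowest in O1. The counts are too small to rank the groups.

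Compared with young mice, the cells without *Col3a1* reads had more genes below the young range, among matrix genes and among all genes. Of the 83 matrix genes, 32 (38.6%) were read in a smaller share of cells than in any young mouse in both old mice in the class without, against 17 (20.5%) in the class with reads. Over all genes the same shares were 22.2% and 13.3%. The cells without also had fewer genes detected, and this comparison was not made on thinned or paired cells. The median matrix gene was read in 22.5% and 24.2% of the cells without *Col3a1* reads in O1 and O5, in 25.0% and 34.3% of the cells with reads, and in 30.7% to 40.9% of the cells of a young mouse.

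Over all genes, those of smallest p in the share test were *Rap1gds1* (9 of 16 and 7 of 40 cells of O1, 12 of 35 and 3 of 33 of O5), the matrix gene *Lama2* and *Tgfbr1*, all with an adjusted p of 0.115 in limma, and *Rap1gds1* and *Tgfbr1* are named because of these values. *Tgfbr1*, the type I receptor of TGF-β, went the other way, with reads in 0 of 16 against 11 of 40 cells of O1 and in 5 of 35 against 13 of 33 of O5, which is −26.3 points, or −32.1 in the pairs. A count of 0 in 16 cells allows a share of up to 18.8%. Over O1 and O5 together, under 10% of the cells with *Col3a1* reads had *Tgfbr1*. It therefore met the limit for testing only through the class without reads. Over the 23 regulators of collagen genes tested, 13 were higher and 10 lower with a median of 2.56 points, and 1 was higher and 2 lower at an unadjusted p under 0.05, beside 6.12% and 1.3% of all genes: *Tgfbr1*, *Id1* (−14.4 points), a target of BMP signalling, and *Vgll3* (26.9 points), a cofactor of TEAD factors. In the Notch list, whose pathway keeps these cells quiescent, 7 of 10 genes were higher with a median of 5.03 points. Of these 10 genes 0 had an unadjusted p under 0.05 in limma, beside 6.12% higher and 1.3% lower over all genes. Among 25 identity and quiescence genes the median was 1.98 points. There, *Cdkn1c*, which encodes the cell cycle inhibitor p57, was read in 1 of 16 against 11 of 40 cells of O1 and in 2 of 35 against 12 of 33 of O5 (−25.9 points, adjusted p = 0.183, limma), so that the cells with *Col3a1* reads were near the young mice (4.55% to 12%) and those without lay above them. With *Col3a1* reads its share was under 10% in both mice, so *Cdkn1c* too met the limit for testing only through the class without.

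*Myod1*, the myogenic determination factor, was read in 5 of 16 and 19 of 40 cells of O1 and in 16 of 35 and 18 of 33 of O5. The difference of −12.5 points was −1.71 in the pairs and −30.4 with thinning before the pairing. Its summed level was 99.5 against 1137 CPM in O1 and 643 against 1494 CPM in O5, a log2 fold change of −2.39 ± 0.60 (SE) with an adjusted p of 1 in edgeR. *Myf5* differed by 6.94 points (21.1 in the pairs), *Des* by 17.4 and *Spry1*, an inhibitor of receptor tyrosine kinase signalling, by −11.0. The early response genes, which rise when muscle is dissociated, had a median of −0.47 points over 24 genes, 12 higher and 12 lower, with *Junb* at −16.4 and *Ier5* at 21.2 points, and *Fos* (0.50) and *Egr1* (−3.32) near 0. The chemokine gene *Ccl11* was read in 1 of 16 and 4 of 40 cells of O1 and in 7 of 35 and 11 of 33 of O5, against at most 2.70% of the cells of a young mouse.

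On summed reads the smallest adjusted p in edgeR was 0.0534, shared by *Dnajc1*, *Flrt2* and *S100a4*, which are named for it. *S100a4*, a calcium-binding protein, had reads in 3 of 16 and 11 of 35 cells with *Col3a1* reads and in 0 of 40 and 0 of 33 without, where a count of 0 allows a share of up to 7.50% and 9.09%. It therefore passed the filter on low counts only through the class with reads. For *Flrt2* the sum of O1 rested on 1 cell with 23253 RPM, and its share of cells differed by −1.69 points.

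As a description across cells, the RPM of each gene was ranked against that of *Col3a1* within O1 (56 cells) and within O5 (68 cells) after thinning, over 4043 genes read in at least 10% of the cells of each mouse. The 10 highest mean values of Spearman's rho were those of *Cox7c* (0.38), *Lama2* (0.37), *Tmem184b*, *Hnrnpr*, *Ets1*, *Fbxo38*, *Sparc* (0.33), *Rbx1*, *Cyb5r3* and *Hdhd2* (0.32). Among these 10, *Lama2* and *Sparc* are matrix genes, beside 1.63% of the 4043 genes. The median over 66 matrix genes was 0.05 and that over all genes 0.02, and values for *Dag1* (−0.10 in O1, 0.28 in O5) and *Itgb1* (−0.14 and 0.27) differed in sign between the mice. After thinning, 12 of 56 cells of O1 and 35 of 68 of O5 had a *Col3a1* read, and the others were tied at 0. The ranks therefore rest on the same reads that set the classes, and in O1 largely on the division itself. Cells also share their library preparation and differ in genes detected, so these values describe the order of the cells only.

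In young mice, where nearly all cells had *Col3a1* reads, the cells of each mouse were divided at the median *Col3a1* level of that mouse and summed. With Y4, Y5, Y7 and Y8 as blocks, edgeR called 0 of 10176 genes (0.0%), with 230 at an unadjusted p under 0.05, and DESeq2 called 140. Of 120 matrix genes 70 were higher in the cells above the median, with a median log2 fold change of 0.15 against 0.02 over all genes, and 2 of them had an unadjusted p under 0.05 in that direction (1.18% of all genes). *Lama2* differed by −0.39 ± 0.23 and *Sparc* by 0.28 ± 0.16 on the log2 scale (SE, n = 4 mice), and *Dag1* by 0.51 ± 0.15. Whether the difference seen for *Lama2* in old cells differs from that in young cells was not tested.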

How the data were processed

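RNA of single cells was analysed for 377 cells. The authors aligned reads with HiSat2 (GRCm38 per the labels) and counted them per gene in SeqMonk; the deposited table holds these raw counts for 25952 genes and no normalization. Every column was matched to a sample by its title. Old cells had 101755 to 462208 reads on genes. There are no molecular identifiers, so intervals and the limit of 3 reads cover counting error only, and doublets were not called because cells were sorted singly. The annotation release and use of strand are not given in the sources used here, so overlapping genes are uncertain.

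Mice were the replicates, and the mouse was the block because both classes came from the same animals, leaving 1 residual degree of freedom; 2 mice carry little information on the spread. Reads were summed per mouse and class and tested with edgeR 4.0.16 (TMM, quasi-likelihood test, default filter on low counts). The log2 odds of the share of cells with a read (0.5 added to the count) were tested with limma 3.58.1, for genes read in at least 10% of old cells. P-values were adjusted over all genes tested (Benjamini-Hochberg, threshold 0.05). DESeq2 1.42.0 was an alternative, and means used log2(RPM + 1). Pairs were matched within 100 genes detected. The scripts were tested on simulated data. R 4.3.3 and Python 3.11.15 were used.

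The cell classes and gene lists were chosen with earlier results of these data known. Genes were named by fixed parts: the 4 most widely read genes of each matrix list, the genes the study discusses, the neighbours of *Col3a1* and the 10 genes of highest rho; others are named for small p-values after these were seen. No gene was called, so the part of the rule on called genes named none. Gene ends are from GENCODE M21 where its start equals the deposited start. *Cdkn2a*, in the rule, had a read in 1 old cell. A marker gene and the summed level of its list are not reported here.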

Additional observations from a re-analysis of the deposited data

Results flagged for a closer look

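Of 59 genes whose share of cells with a read was examined over the 4 young mice, 7 had a mouse that stood apart from the other 3 (its gap to the nearest value, as a share of the range, above Dixon's 95% critical value). Chance gives about 1 in 20 where values are independent and normally distributed. These genes were read in the same cells of the same 4 mice, so the 7 cannot be set against that rate. Mouse Y8 had the lowest share for *Sparc* (84% against 97.3% to 98.3%), *Col5a1* (16% against 41.7% to 45.5%), *Ccnd1* (24% against 41.7% to 43.2%), *Tmem184b* (12% against 20% to 21.6%) and *Sdc4* (98.7% against 100% in each other mouse). For *Sdc4* this is 1 cell of 75, and with the other 3 mice tied any lower value would have stood apart. Mouse Y5 was lowest for *Fosb* (77.3% against 93.3% to 96.0%) and highest for *Timp3* (54.5% against 31.7% to 34.7%). The O5 cells with *Col3a1* reads, at 82.9% for *Sparc*, were near Y8. The cause was not tested.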

How the results depend on the processing

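Only 2 old mice were analysed, both on lane 2, and O1 gave 16 cells with reads, so values of O1 are the less precise. No molecule counts exist. The alternative that thins cells and then pairs them was chosen after seeing the data.

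The number of genes called on summed reads, 0 as reported, was 228 with DESeq2, 1 with limma on mean log2(RPM + 1), 3 without the filter on low counts, 6 with classes set again after thinning, 3 when 10 reads put a cell in the class, and 2 with thinning followed by pairing (11 and 26 pairs). It stayed at 0 with RLE size factors, with thinning, with pairing, and in the fit with no replicate block. By share it was 1 with thinning (*Lama2*), and 0 under each other alternative run, no replicate block included. In young cells it was 140 with DESeq2 and 0 with no replicate block, with thinning and with each young mouse left out. The median log2 fold change of matrix genes was −0.74 with 10 reads as the limit, where all genes had −0.90, and was −0.29 without O5 and 0.46 without O1. The median difference in share was 0.21 points with pairing, 1.92 with thinning and pairing, and was 2.50 without O5 and 7.01 without O1. The difference in genes detected was 15.5 with pairing, by construction, and 20 after thinning and pairing, against 117.5 (without O5) to 215 (without O1).

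Of 76 named genes tested by share, 50 kept their direction under every alternative run, 23 changed sign under at least 1, and *Gulp1*, *Ltbp4* and *Sdc4* were at 0 under at least 1. Leaving out the replicate block and lowering the filter to 5 old cells do not alter the difference itself, so neither could change a sign. No mouse was left out for these genes, so a gene with opposite signs in O1 and O5 could still count as keeping its direction. The differences that changed sign, in points, were with pairing *Adamts1* (−9.54), *Cd44* (−5.56), *Col19a1* (3.7), *Col4a1* (−7.55), *Col5a2* (−3.7), *Fos* (−2.14), *Igfbp5* (−2.14), *Lama3* (0.285), *Lox* (−7.55), *Thbs1* (−9.4), *Timp3* (−1.99); with thinning *Col19a1* (3.78), *Ctsl* (−2.6), *Pax7* (0.885); with classes set again after thinning *Adamts1* (−2.92), *Ccl19* (−0.693), *Cd44* (−1.85), *Col19a1* (7.59), *Col5a1* (0.823), *Col5a2* (−0.455), *Col6a2* (−2.79), *Ctsl* (−8.02), *Flrt2* (0.0325), *Fosb* (0.844), *Gas1* (1.11); with 10 reads as the limit *Cdh15* (−3.8), *Col19a1* (4.59), *Col5a2* (−5.68), *Col6a2* (−2.98), *Itgb1* (−0.174), *Thbs1* (−1.29); with 5 reads for detection *Adamts1* (−1.01), *Col19a1* (6.54), *Col5a1* (0.728), *Col6a2* (−0.528), *Ctsl* (−1.18), *Lox* (−0.238), *Pax7* (3.64); and with thinning and pairing *Adamts1* (−8.39), *Ccl19* (−4.54), *Cdh15* (−5.77), *Col19a1* (18.7), *Col5a2* (−6.47), *Col6a2* (−13.6), *Cyp26a1* (0.699), *Dag1* (−4.54), *Lox* (−6.47), *Pax7* (1.92), *Thbs1* (−16.8). None of these genes was called by share, and the cause was not tested.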
